A study of Mus musculus with 6 samples.

Results

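Antioxidant genes and targets of the transcription factor NRF2 were examined in macrophages (MPs) that had infiltrated injured mouse muscle. The members were listed by symbol, and all 35 of the 35 listed symbols were present among the 13008 genes of the deposited table. The study asked whether loss of Cripto, a membrane protein that modulates TGFβ signaling, changes the expression profile of Ly6C Low MPs. RNA-seq was performed on F4/80+/Ly6CLow MPs sorted by FACS from hind limb muscles 5 days into cardiotoxin injury, with 3 Control and 3 Cripto KO samples. All 6 samples are labelled as C57BL/6J males aged 3 months.

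Cripto KO samples carry the genotype Tg:LysMCre::Cripto-/-, in which Cre is expressed from the lysozyme M locus in the myeloid lineage, so that recombination is not restricted to muscle MPs and is not complete. The labels give the Control samples as wild type, while the methods of the study describe Control mice that carry LysMCre and the R26 mTmG reporter and sorting on its GFP. The labels name no other difference between the groups. Expression of the Cripto gene itself was not analysed here and gave no check of the genotypes. The samples were taken as biological replicates, as the study describes them.

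The recovered reads summed to between 12688968 and 15659847 in a sample. Macrophage genes were high in both groups, since Adgre1, which encodes F4/80, was between 1065 and 1384 in the 6 samples. Of the Control samples 2 stood apart from the others. Control replicate 1 had 171 of Xist against 0.114 to 0.885 elsewhere, although its label says male, and Control replicate 2 had 11066 of Lyz2 against 21.2 to 28.3 elsewhere. Results are therefore also given without these samples. Lyz2 is the gene of the lysozyme M locus, from which Cre is expressed in the Cripto KO samples. In Lyz2, Control replicates 1 and 3 were at 25.2 and 21.4, at the level of the Cripto KO samples, and Control replicate 2 was not. The Control samples were therefore not alike in the mRNA of this gene. Whether all 3 Control samples carry LysMCre was not tested. All values are the authors' normalized values, for which 0.5 was added to the reads of a gene and the sum scaled to 1000000 reads of the normalized library. Fold changes are log2(Control/Cripto KO), so positive values mean higher in Control. Groups were compared with limma across all 13008 genes, with Benjamini-Hochberg adjustment over all of them.

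NRF2, encoded by Nfe2l2, is bound by KEAP1 and degraded in resting cells. Electrophiles and oxidants modify KEAP1, after which NRF2 accumulates and activates genes with antioxidant response elements in their regulatory DNA. Its targets make glutathione, reduce thioredoxin and conjugate toxic compounds. In phagocytes the same redox balance faces the NADPH oxidase, an enzyme complex that makes superoxide on purpose. NRF2 protein is controlled largely by its stability, so that the level of Nfe2l2 mRNA is not a measure of NRF2 activity.

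The core of the antioxidant response element, TGACNNNGC, was searched on both strands (GCNNNGTCA is its reverse complement) in windows from 250 bases before to 50 bases after each RefSeq gene start on GRCm38.p6. Of the 35 members 30 had a window in the table used, and 8 of these genes (26.7%) held the letters, against 17.2% of the 9537 genes of the deposited table that had one. The members with a match were Nfe2l2, Gclm, Prdx1, Sesn2, Srxn1, Txnrd1, Mgst1 and Sod1. The stretches around the match are printed for the 3 members among them that also had an unadjusted p-value under 0.05 below, with the matched letters in capitals and each sequence on the strand of its gene. The Nfe2l2 stretch lies at chr2:75704865-75704913 on the minus strand, the Gclm stretch at chr3:122245393-122245461 on the plus strand and the Prdx1 stretch at chr4:116685436-116685504 on the plus strand.
Nfe2l2: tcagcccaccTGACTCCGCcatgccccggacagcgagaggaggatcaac
Gclm: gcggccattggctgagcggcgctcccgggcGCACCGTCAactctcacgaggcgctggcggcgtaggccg
Prdx1: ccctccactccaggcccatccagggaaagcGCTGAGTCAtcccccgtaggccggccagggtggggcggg
The match began 240 bases before the start of Nfe2l2, 134 bases before that of Gclm and 133 bases before that of Prdx1. In Prdx1 it also contains TGAGTCA, the letters of an AP-1 site. Gclc, Gsr, Prdx6, Ncf4 and Rac2 had no window in the table. A match describes letters only.

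The members covered a wide range of levels. Per kilobase of the longest coding transcript, Cyba was highest in Control MPs at 1539 normalized reads per 1000000 and kilobase, followed by Gpx1 at 886, Sqstm1 at 770 and Prdx1 at 439. Nfe2l2 stood at 236 on this scale, and its inhibitor Keap1 at 8.43. The enzymes of glutathione synthesis were low, with Gclm at 10.9, Gss at 7.47 and Gclc at 7.35 per kilobase. Slc7a11, the cystine transporter, was at 1.53, and Nqo1, a quinone reductase often used as a marker of NRF2 activity, was lowest at 0.528. Nqo1 rested on 5 to 24 reads in a sample. Cyba and Nqo1 were also at both ends of the order in Cripto KO MPs, with 1470.2 and 0.695 per kilobase.

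**Figure D1:**
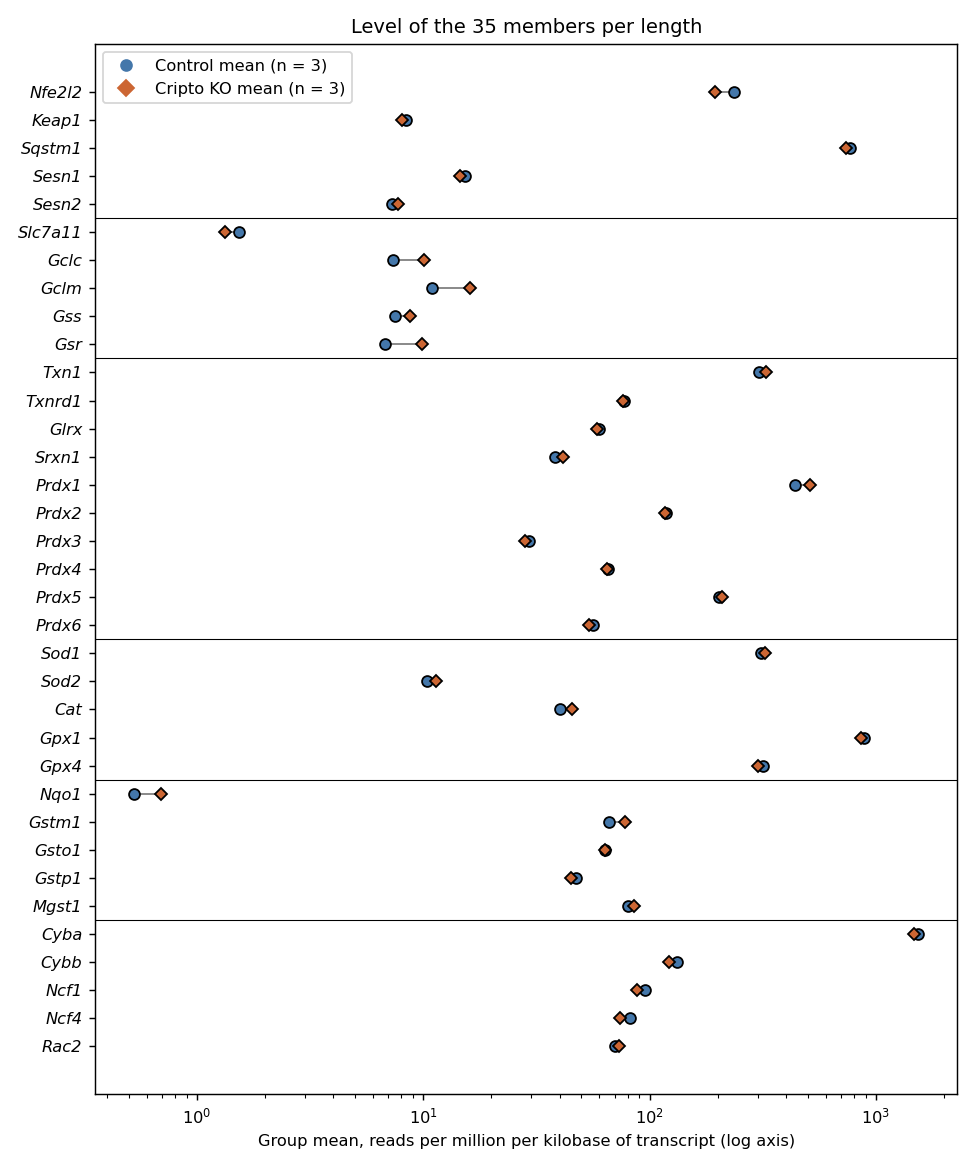
Group means of the 35 members in reads per 1000000 and kilobase of the longest coding transcript (log axis), with circles for Control and diamonds for Cripto KO (n = 3 each) and lines between roles. Levels run from 0.528 for Nqo1 to 1539 for Cyba in Control, and the widest gaps between the groups among the glutathione genes are those of Gclc, Gclm and Gsr.

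No member had an adjusted p-value under 0.05 between Control and Cripto KO MPs in limma, where 0.131% of all genes did. An unadjusted p-value under 0.05 was reached by 6 of the 35 members (17.1%) and by 8.59% of all genes. Of these, 5 were higher in Cripto KO MPs (Gclm, Gsr, Gclc, Gstm1 and Prdx1; background 3.99% in this direction) and 1 was higher in Control (Nfe2l2; background 4.6%). edgeR on the recovered reads also called 0 members after adjustment and gave the same 6 at an unadjusted p-value under 0.05, and DESeq2 called 1 member, Gclm (0.547% of the genes it tested were called). The groups did not overlap in 7 members, while they did not overlap in 14.5% of all genes. Control was above in 3 of these (Nfe2l2, Prdx3 and Ncf1, against a background of 8.02%) and Cripto KO in 4 (Gclc, Gclm, Gsr and Gstm1, against 6.43%). The median log2 fold change was 0.0052 over the members and 0.01 over all genes.

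**Figure D2:**
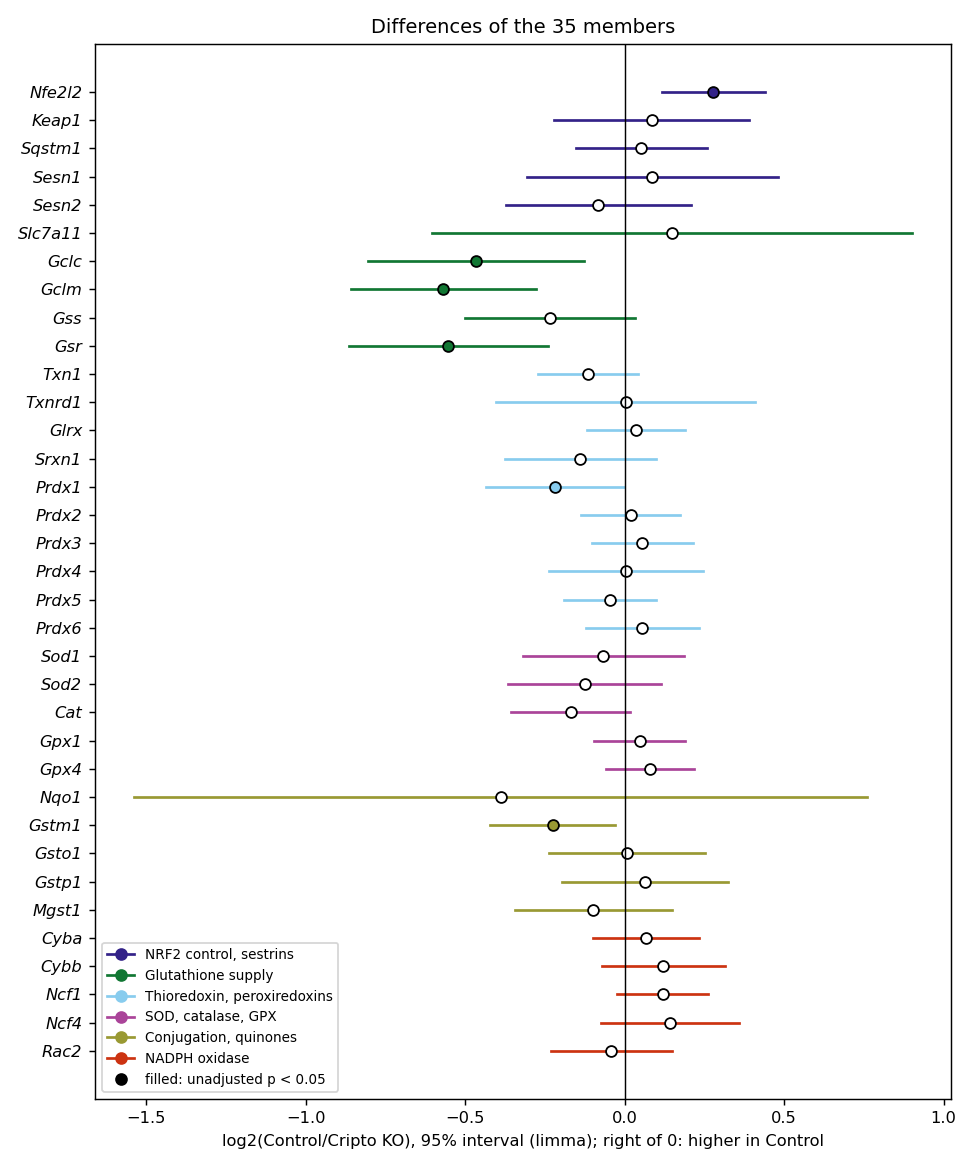
Log2(Control/Cripto KO) of each member with its 95% interval from limma, colored by role. Filled points mark the 6 members with an unadjusted p-value under 0.05, of which Nfe2l2 lies to the right of 0 and Gclc, Gclm, Gsr, Gstm1 and Prdx1 to the left.

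Among the regulators, Nfe2l2 mRNA was lower in Cripto KO than in Control MPs in every sample. Nfe2l2 (ENSMUSG00000015839, chromosome 2 from 75675513 to 75704641 on GRCm38) was 621, 564 and 568 in Control replicates 1, 2 and 3, and 453, 494 and 498 in Cripto KO replicates 1, 2 and 3. The lowest Control value was above the highest Cripto KO value. The difference was 1.21-fold (log2 fold change 0.28, standard error 0.07, 95% interval 0.12 to 0.44, unadjusted p = 0.00347, adjusted p = 0.379, limma). Leaving out Control replicate 1 gave a log2 fold change of 0.23, and leaving out Control replicate 2 gave 0.30. In sorted bulk samples, here and below, fewer cells of a type and less RNA per cell cannot be told apart.

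Keap1, which encodes the NRF2 inhibitor, gave no such separation. It was between 29.3 and 31.03 in Control MPs against 35.2, 23.7 and 28.4 in Cripto KO replicates 1, 2 and 3. The Cripto KO values lay on both sides of the Control values, and the log2 fold change was 0.08 (95% interval -0.22 to 0.39, adjusted p = 0.896, limma). Sqstm1, whose product p62 competes with NRF2 for KEAP1, was between 1874 and 2245 in Control, and from 1876 to 2053 in Cripto KO MPs. The sestrins Sesn1 and Sesn2, stress-induced regulators of mTORC1, were at 58.5 ± 11.4 (SD, n = 3) and 25.3 ± 3.38 in Control and at 55.2 ± 12.2 and 26.8 ± 3.04 in Cripto KO MPs. The log2 fold changes of Keap1, Sqstm1, Sesn1 and Sesn2 each changed sign when 1 sample was left out.

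The largest log2 fold changes of all 35 members were those of Gclm, Gsr and Gclc, genes that make or recycle glutathione, and each was higher in Cripto KO MPs. Gclm encodes the modifier subunit of glutamate-cysteine ligase, the rate-limiting enzyme of glutathione synthesis. Gclm (ENSMUSG00000028124, chromosome 3 from 122245557 to 122270732) was 69.1, 50.1 and 63.5 in Control replicates 1, 2 and 3 and 92.7, 78.5 and 98.5 in Cripto KO replicates 1, 2 and 3. All Cripto KO values were above all Control values, a 1.48-fold difference (log2 fold change -0.57, standard error 0.13, unadjusted p = 0.00161, adjusted p = 0.288, limma). With DESeq2 the adjusted p-value was 0.00432, and over all alternatives it ranged from 0.00432 to 0.773.

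Gclc, which encodes the catalytic subunit of the same ligase, showed the same separation. It was 29.8, 19.9 and 25.8 in Control MPs against 35.5, 30.3 and 37.4 in Cripto KO replicates 1, 2 and 3. The highest Control and the lowest Cripto KO value were close, and the difference was 1.38-fold (log2 fold change -0.47, standard error 0.15, unadjusted p = 0.0125, adjusted p = 0.483, limma). Its size depended on Control replicate 2, since the log2 fold change was -0.30 without it and -0.60 without Control replicate 1.

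Gsr encodes glutathione reductase, which returns oxidized glutathione to the reduced form with NADPH. It was 21.8, 16.0 and 16.4 in Control MPs against 26.6, 23.5 and 28.6 in Cripto KO replicates 1, 2 and 3. The groups did not overlap, and the difference was 1.47-fold (log2 fold change -0.55, standard error 0.14, unadjusted p = 0.00309, adjusted p = 0.376, limma). Its smallest adjusted p-value over the alternatives was 0.0712, without Control replicate 1. Of the stretches (words) of 31 bases in the annotated transcripts of Nfe2l2, Gclc and Gsr 0% occur in a transcript of another gene, and 6.82% of those of Gclm do.

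The other glutathione genes did not separate the groups. Gss, the glutathione synthetase of the second step, was 14.3, 16.3 and 13.3 in Control MPs against 18.7, 16.2 and 16.7 in Cripto KO MPs (log2 fold change -0.23, 95% interval -0.50 to 0.03, adjusted p = 0.64, limma). Here 1 Control sample lay just above the lowest Cripto KO sample. Slc7a11, which imports the cystine used for synthesis, was 20.9, 8.29 and 13.2 in Control MPs against 8.22, 12.8 and 15.9 in Cripto KO MPs (log2 fold change 0.15, 95% interval -0.60 to 0.90, adjusted p = 0.931, limma). Its spread within each group exceeded the difference between the groups, and its sign turned without Control replicate 1 and without Cripto KO replicate 1.

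**Figure D3:**
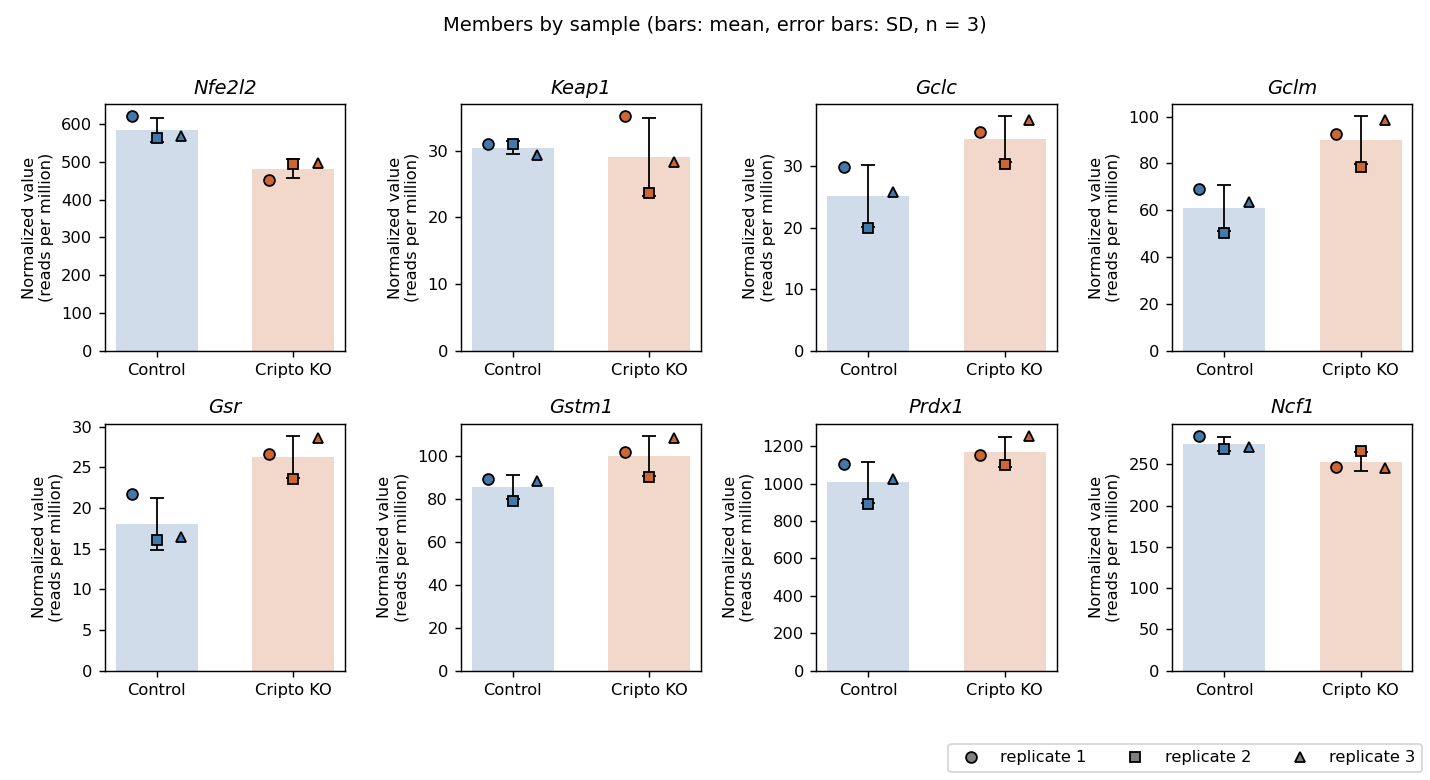
Normalized values (reads plus 0.5 per 1000000) of 8 members in the 6 samples, with bars for group means, error bars for the SD (n = 3) and marker shapes for replicate numbers. Nfe2l2 and Ncf1 are higher in the 3 Control samples, Gclc, Gclm, Gsr and Gstm1 in the 3 Cripto KO samples, and Keap1 and Prdx1 overlap.

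In the thioredoxin and peroxiredoxin group 1 of 10 members had an unadjusted p-value under 0.05 (limma), near the 8.59% of all genes that had one. Prdx1, an abundant cytosolic peroxiredoxin that reduces hydrogen peroxide, was 1108, 889.6 and 1025 in Control MPs against 1153, 1101 and 1256 in Cripto KO replicates 1, 2 and 3. Control replicate 1 lay above the lowest Cripto KO sample (1.16-fold, log2 fold change -0.22, standard error 0.10, unadjusted p = 0.0474, adjusted p = 0.571, limma). Without Control replicate 2 the log2 fold change was -0.13 (unadjusted p = 0.183, limma), and the p-value was also above 0.05 without Control replicate 3 (0.0809), Cripto KO replicate 1 (0.0748) and Cripto KO replicate 3 (0.171). Other genes hold 15.4% of the words of Prdx1, so that its reads are less certain.

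Thioredoxin (Txn1) was 319 ± 18.4 (SD, n = 3) in Control and 345 ± 15.6 in Cripto KO MPs, with overlap. Txnrd1, the reductase that recharges it and a textbook NRF2 target, was 355, 211 and 274 in Control MPs against 227, 289 and 309.9 in Cripto KO MPs. Its log2 fold change of 0.0036 had a 95% interval of -0.40 to 0.41, and it ranged from -0.18 without Control replicate 1 to 0.19 without Control replicate 2. Srxn1, which repairs overoxidized peroxiredoxins, was 125, 93.4 and 102 in Control MPs against 111, 121 and 119 in Cripto KO MPs, so that Control replicate 1 exceeded all of the Cripto KO samples. Its log2 fold change of -0.14 (unadjusted p = 0.22, limma) was -0.26 without that sample (unadjusted p = 0.00779, adjusted p = 0.296, limma) and -0.0456 without Control replicate 2.

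The remaining peroxiredoxins had small log2 fold changes. Prdx3, the mitochondrial form, was 42.5, 44.7 and 42.7 in Control MPs against 41.5, 41.7 and 41.7 in Cripto KO replicates 1, 2 and 3. The groups did not overlap, and the log2 fold change was 0.06 (95% interval -0.10 to 0.22, adjusted p = 0.861, limma). Prdx2, Prdx4, Prdx5 and Prdx6 had log2 fold changes between -0.04 and 0.06, with overlap in each. Glutaredoxin (Glrx), which removes glutathione from protein thiols, was 80.7 ± 2.29 in Control and 78.7 ± 3.64 in Cripto KO MPs.

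With all 6 samples, none of the superoxide dismutases, catalase or glutathione peroxidases had an unadjusted p-value under 0.05 in limma, and all 5 overlapped. Sod2 had one without Cripto KO replicate 1 (-0.24 on the log2 scale, unadjusted p = 0.0222, adjusted p = 0.607, limma), against -0.13 with all samples. Sod1, the cytosolic dismutase, was between 174 and 234 in Control, and from 190.1 to 224 in Cripto KO MPs, and Sod2, the mitochondrial one, between 57.0 and 65.3 and between 56.5 and 72.9. Catalase (Cat), which breaks down hydrogen peroxide in peroxisomes, was 102, 112 and 103 in Control MPs against 129, 107 and 121 in Cripto KO MPs (log2 fold change -0.17, 95% interval -0.36 to 0.02, adjusted p = 0.629, limma). Cripto KO replicates 1 and 3 exceeded every Control sample, and replicate 2 lay within the Control range. The log2 fold change of Cat was -0.24 without that replicate (unadjusted p = 0.0178, limma), -0.21 without Control replicate 2 (unadjusted p = 0.0477, limma) and -0.11 without Cripto KO replicate 1 (unadjusted p = 0.233, limma). Gpx1 was 950 ± 9.13 (SD, n = 3) in Control and 919.6 ± 20.8 in Cripto KO MPs, and Gpx4, which protects membrane lipids, was 316 ± 10.5 and 299 ± 8.9. Gpx4 shares 38.7% of its words of 31 bases with the pseudogene Gpx4-ps2, so that the reads of Gpx4 are uncertain, although Gpx4-ps2 itself had a mean of only 4.65. Other genes also hold 26.7% of the words of Sod2, 16.9% of those of Prdx5, 16.5% of Prdx2 and 16.4% of Sqstm1. The same limit holds for these members.

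Among the conjugating enzymes, Gstm1, a glutathione S-transferase, was 89.3, 79.4 and 88.4 in Control MPs against 102, 90.4 and 109 in Cripto KO replicates 1, 2 and 3. The groups did not overlap, by a narrow margin (1.17-fold, log2 fold change -0.23, standard error 0.09, unadjusted p = 0.0287, adjusted p = 0.529, limma). Without Control replicate 2 the log2 fold change was -0.17 (unadjusted p = 0.0999, limma), and the p-value was also above 0.05 without Cripto KO replicate 1 (0.068) and Cripto KO replicate 3 (0.121). Of the words of Gstm1 28.8% occur in other genes, and 22.6% in the pseudogene Gstm2-ps1. Gsto1, Gstp1 and Mgst1 had log2 fold changes of 0.0070, 0.06 and -0.10, each with overlap and each turning sign under an alternative. Gstp1 shares 38.5% of its words with Gstp2. Nqo1 was 1.14, 0.87 and 0.449 in Control MPs against 1.56, 1.10 and 0.586 in Cripto KO MPs, with a 95% interval of -1.54 to 0.76 for its log2 fold change of -0.39. With single samples left out this value ran from -0.77 without Cripto KO replicate 3 to -0.0050 without Control replicate 3, so that no difference was detectable at 5 to 24 reads.

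Of the NADPH oxidase members 4 of 5 had positive log2 fold changes, as had 6839 of all 13008 genes, and none had an unadjusted p-value under 0.05 in limma. Cybb, the catalytic gp91phox subunit, was 579, 698 and 616 in Control MPs against 558, 618 and 559.9 in Cripto KO MPs, and Cyba, its membrane partner p22phox, was 1145 ± 31.6 (SD, n = 3) and 1094 ± 64.8. Ncf1, which encodes the organizing subunit p47phox, was 284, 269 and 271 in Control MPs against 247, 266 and 246 in Cripto KO MPs. Here the groups did not overlap (log2 fold change 0.12, 95% interval -0.02 to 0.26, adjusted p = 0.66, limma). Ncf4, the p40phox subunit, was 119 ± 8.83 in Control and 109 ± 12.4 in Cripto KO MPs, and the GTPase Rac2 was 215 ± 1.73 and 222 ± 25.9. The positive sign of Cyba, Cybb, Ncf1 and Ncf4 was kept in all 18 alternatives, and the negative sign of Rac2 turned in 1.

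Further genes of the pathway, outside the members, were then read from the same fit. Of 64 genes listed, 59 were in the table, and limma gave 0 with an adjusted p-value under 0.05, as did edgeR, while DESeq2 gave 1, Hmox1. An unadjusted p-value under 0.05 was found for 6 of them, or 10.2% where 8.59% of all genes had one, with 5 higher in Cripto KO MPs. Hmox1, Akr1b8, Abcc1 and Me1 are described, since they had the 4 smallest p-values.

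Hmox1 encodes heme oxygenase-1, which degrades heme and is a target of both NRF2 and its competitor BACH1. It was 2557, 1734 and 2260.4 in Control MPs against 3073, 3009 and 2942 in Cripto KO replicates 1, 2 and 3. All Cripto KO values were above all Control values, a 1.39-fold difference (log2 fold change -0.48, standard error 0.13, unadjusted p = 0.00565, adjusted p = 0.415, limma; adjusted p = 0.014 with DESeq2, and 0.014 to 0.833 over all alternatives). Leaving out Control replicate 2 gave -0.32, and leaving out Control replicate 1 gave -0.60.

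Akr1b8, an aldo-keto reductase, was 35.4 ± 4.97 (SD, n = 3) in Control and 47.1 ± 4.32 in Cripto KO MPs, a difference of -0.42 on the log2 scale (adjusted p = 0.416, limma). Abcc1, an exporter of glutathione conjugates, was 64.6 ± 5.72 and 77.6 ± 5.07 (-0.27 on the log2 scale, adjusted p = 0.494, limma). Me1, malic enzyme, which supplies NADPH, was low, at 1.44, 1.17 and 0.694 in Control MPs against 1.81, 2.02 and 2.58 in Cripto KO MPs (2.01-fold higher in Cripto KO, adjusted p = 0.5, limma), and 36.9% of its words occur in other genes. On 8 to 37 reads in a sample, its log2 fold change of -1.005 was -0.59 with a pseudocount of 1, -0.70 without Control replicate 3 (unadjusted p = 0.0592, limma), -0.86 without Cripto KO replicate 3 (unadjusted p = 0.072, limma) and -1.61 without both Control replicates 1 and 2. In Akr1b8, Abcc1 and Me1 the groups did not overlap, but these genes were named for their small p-values. Of the 59 pathway genes 8 (13.6%) had no overlap, against 14.5% of all genes. Cripto KO was above in 6 of the 59 pathway genes, and in 6.43% of all genes. Without both Control replicates 1 and 2, the log2 fold change was -0.23 for Akr1b8 and -0.16 for Abcc1 (unadjusted p = 0.117 and 0.193, limma). The unadjusted p-value of Abcc1 was also above 0.05 without Control replicate 2 alone (0.0515, limma) and without Cripto KO replicate 3 (0.0612, limma). Ferritin genes did not separate the groups, since Fth1 was between 11740 and 13959 in Control, and from 11773 to 13551 in Cripto KO MPs. Of the genes in the pathway list whose products act with or on NRF2 (Bach1, the small MAF genes, Cul3, Rbx1 and Crebbp), 0 of 7 had an unadjusted p-value under 0.05 (limma). Their log2 fold changes lay between -0.20 and 0.15.

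**Figure D4:**
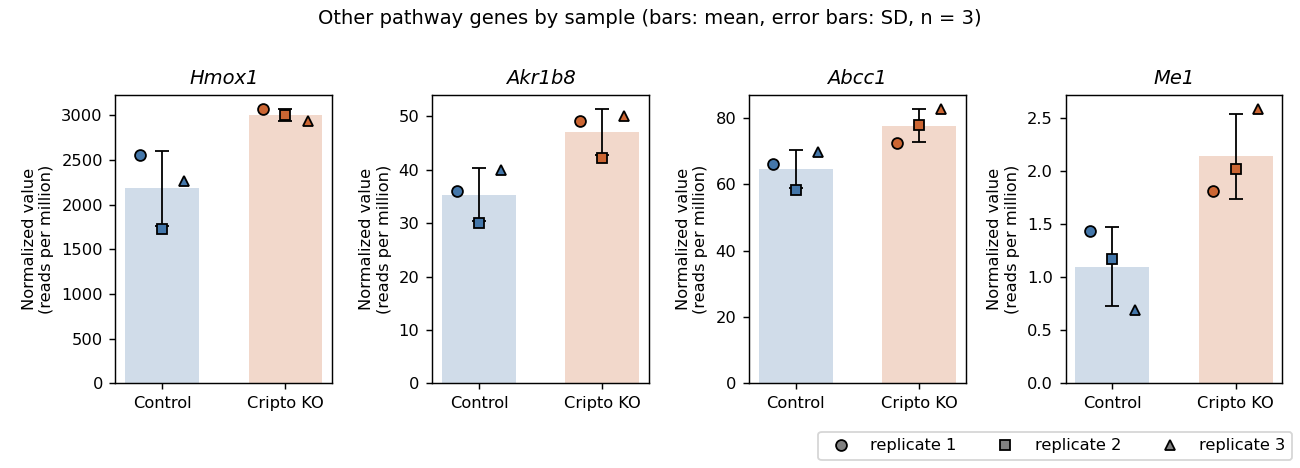
Normalized values (reads plus 0.5 per 1000000) of the 4 pathway genes outside the members with the smallest p-values, with bars for group means, error bars for the SD (n = 3) and marker shapes for replicate numbers. Hmox1, Akr1b8, Abcc1 and Me1 are higher in all 3 Cripto KO samples than in any Control sample. A lack of overlap in either direction was found in 13.6% of the 59 pathway genes and in 14.5% of all genes.

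The members also varied among samples of the same group. Control replicate 1 had the highest Control value in 21 of 35 members (60.0%), against 37.5% of all genes, and Control replicate 2 had the lowest in 17 (48.6%), against 33.7%. These are the samples that stood apart in Xist and Lyz2. With both left out, Control replicate 3 alone against Cripto KO gave log2 fold changes of 0.24 for Nfe2l2, -0.41 for Gclc, -0.50 for Gclm and -0.68 for Gsr (unadjusted p = 0.0406, 0.0266, 0.00681 and 0.00246, limma), where the spread came from the Cripto KO samples. For Prdx1 and Gstm1 the unadjusted p-values were then 0.128 and 0.18 (limma). In Slc7a11 and Txnrd1 the gap between both exceeded any difference between the groups. Gclc, Gclm, Gsr and Gstm1 ranked the 6 samples in 1 and the same order, Control replicates 2, 3 and 1 and then Cripto KO replicates 2, 1 and 3, an order held by 34 of all 13008 genes (0.261%). This order was noticed in the values of Gclm and is given as a description. It requires every Cripto KO value to lie above every Control value, which held in 837 of all genes. The 4 members are those already set apart by that separation, so 0.261% does not measure how rare their shared order is. The median SD of log2 values was 0.13 in Control and 0.0964 in Cripto KO MPs over the members, and 0.159 and 0.144 over all genes.

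**Figure D5:**
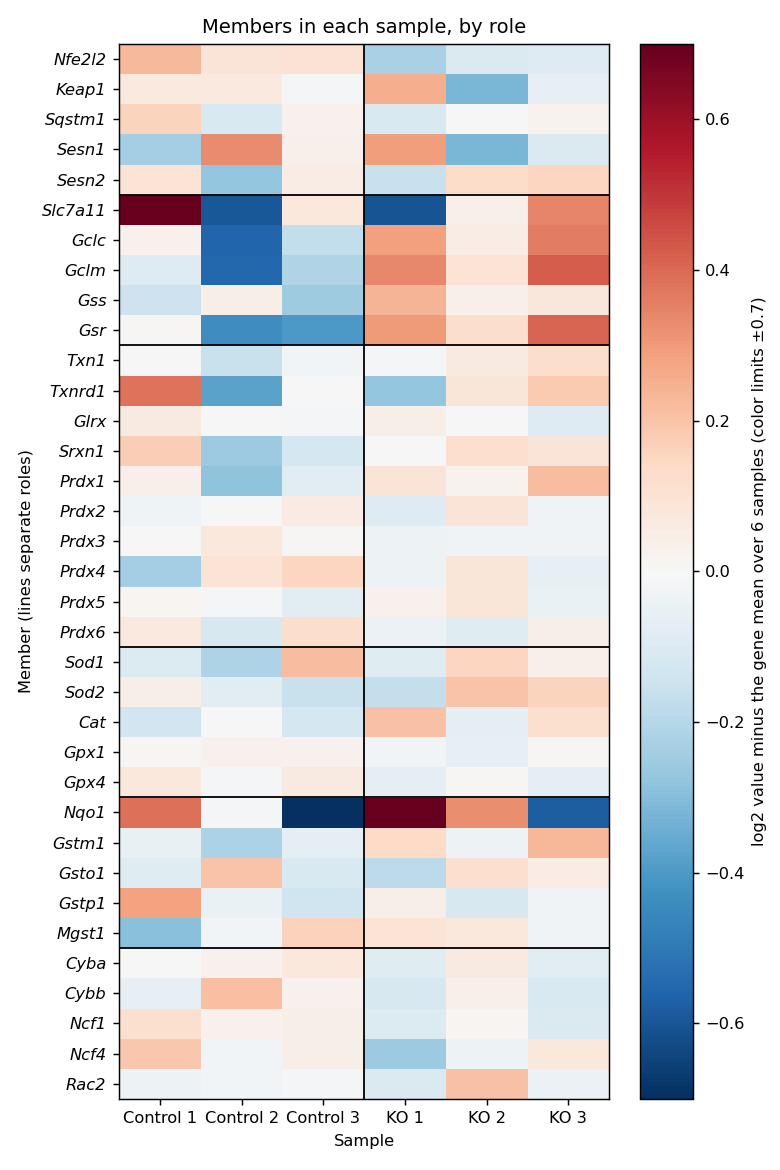
Each row is a member and each column a sample, and the color gives the log2 value minus the mean of that gene over the 6 samples (color limits ±0.7), with lines between roles and between the groups. Gclc, Gclm and Gsr are lowest in Control replicate 2 and highest in Cripto KO replicate 3, and Slc7a11 and Txnrd1 are highest in Control replicate 1.

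Marker genes of other cell types were read beside these results. The summed level of 10 fibroblast genes was 525 to 551 in Control and 618 to 674 in Cripto KO MPs, with no overlap. Of the 10, 6 had an unadjusted p-value under 0.05 (limma), against 8.59% of all genes. All 6 were higher in Cripto KO MPs (background 3.99% in this direction), as were Gclc, Gclm and Gsr. The log2 fold changes of all 10 were negative, but Lum, Fbn1, Fap and Thy1 overlapped between the groups (unadjusted p = 0.376 to 0.438, limma). Pdgfra rested on 5 to 18 reads in a sample. The 9 neutrophil genes in the table summed to 122 to 137 in Control and to 147 to 151 in Cripto KO MPs, also with no overlap. Of these, S100a9, Retnlg and Ngp had 0 reads in all 6 samples, Csf3r was highest and did not separate the groups, and Mmp9 was the 1 gene with an adjusted p-value under 0.05 (19.9 ± 4.03 in Control and 42.1 ± 3.16 in Cripto KO MPs, SD, n = 3, adjusted p = 0.0313, limma). The gap between the neutrophil sums came from Mmp9, since the sums of the other genes in that list overlapped between the groups. Sums over the 8 endothelial genes (57.6 to 68.9 and 63.6 to 69.2), the 7 muscle genes (34.2 to 67.2 and 19.1 to 54.1) and the 10 macrophage genes (17371 to 17727 and 16164 to 17730.3) overlapped. In the muscle list 4 of 7 genes had an unadjusted p-value under 0.05 (limma), against 8.59% of all genes, and 3 of the 4 were higher in Control. The 4 erythroid genes in the table summed to at most 3.56 and the 3 lymphocyte genes to at most 2.83 in any sample. The part of these cells in the differences of the members was not tested.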

How the data were processed

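RNA-seq was analysed in 3 Control and 3 Cripto KO samples. The authors trimmed reads with cutadapt (1.7.1), discarded reads under 30 bases, used RSEM (1.2.20) for quantification against GRCm38 transcripts of release 91, and normalized with limma. The values they deposited are a normalized signal per gene. Whole reads, within 0.01 read, were recovered from 100.0% of 78048 values. They summed to 12688968 to 14141773 in Control and to 14633880 to 15659847 in Cripto KO samples. Values at 3 reads were 0.222 to 0.286, and such limits cover counting error alone.

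log2 values without a pseudocount were tested with limma (3.58.1, R 4.3.3, lmFit and eBayes with a variance trend) over all genes, and recovered reads with edgeR (4.0.16) and DESeq2 (1.42.0). The tests were checked on simulated counts. Members and lists were chosen with earlier results of these data known. Sample values are printed for members with an unadjusted p-value under 0.05 or no overlap, for Nfe2l2 and Keap1, and for other members where they show the spread, a choice made after the values were seen. Of the pathway list, genes were named by the 5 smallest p-values, of which 1 gene is not reported here, and Fth1 was added afterwards. Lengths and words of 31 bases, on either strand, come from GENCODE mouse release 21 transcripts (GRCm38), and start-site windows from RefSeq (GRCm38.p6). Strand use in counting is not given in the sources used here. Alternatives were pseudocounts, a filter, centring, quantile normalization, variance models, count tests, a replicate block and left-out samples. Python 3.11.15 with pandas 2.3.3 and matplotlib 3.10.9 made tables and figures.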

Additional observations from a re-analysis of the deposited data

How the results depend on the processing

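Over 18 alternatives, Nfe2l2, Gclc, Gclm and Gsr kept their direction and an unadjusted p-value under 0.05 in each, while Gstm1 and Prdx1 kept their direction and had such a p-value in 13 and 10. Further members had one under some alternatives, namely Cat and Txn1 with quantile normalization, Srxn1 without Control replicate 1, Cat and Gss without Control replicate 2, Sod2 without Cripto KO replicate 1 and Cat without Cripto KO replicate 2. Of 39 named genes 14 changed sign under an alternative. Each of these had a log2 fold change within 0.15 of 0 and an unadjusted p-value of at least 0.392 (limma). With single samples left out, their log2 fold changes were -0.0539 to 0.23 for Keap1, -0.0114 to 0.12 for Sqstm1, -0.0556 to 0.26 for Sesn1, -0.18 to 0.0323 for Sesn2, -0.19 to 0.48 for Slc7a11, -0.18 to 0.19 for Txnrd1, -0.0007 to 0.0650 for Glrx, -0.0224 to 0.0693 for Prdx2, -0.0698 to 0.13 for Prdx4, -0.19 to 0.0260 for Sod1, -0.0914 to 0.0688 for Gsto1, -0.0609 to 0.15 for Gstp1, -0.20 to 0.0234 for Mgst1 and -0.10 to 0.0521 for Rac2. Signs also turned with quantile normalization (Sqstm1 -0.0008, Txnrd1 -0.0531, Glrx -0.0127, Prdx2 -0.0218, Prdx4 -0.0322, Gsto1 -0.0336), with voom (Txnrd1 -0.0068, Prdx4 -0.0078, Gsto1 -0.0029), with edgeR (Gsto1 -0.0027), with DESeq2 (Gsto1 -0.0011) and with Control replicate 3 alone (Sesn2 0.0082, Sod1 0.18, Gsto1 -0.10, Gstp1 -0.11, Mgst1 0.11). The cause of these turns was not tested. The number of members with an adjusted p-value under 0.05 was 0 in limma and 1 with DESeq2, where the log2 fold change was -0.57 for Gclm (adjusted p = 0.00432) and -0.47 for Hmox1 (adjusted p = 0.014). The number of genes with an adjusted p-value under 0.05 was 17 of all genes, and it was 6 with quantile normalization, 5 without the variance trend, 31 with the robust option, 9 with voom weights, 71 with DESeq2 and 5 to 31 when single samples were left out (31 without Control replicate 1, 7 without Control replicate 3, and 10, 5 and 7 without Cripto KO replicates 1, 2 and 3). With the replicate number as a block it was 2, and no call of a member changed. Same-numbered samples did not deviate together (correlations -0.21, -0.005 and 0.000 over 11960 genes). The deviations within a group of 3 sum to 0, so these correlations cannot show whether the numbers mark a shared litter, batch or day. Replicate numbers are those of the sample labels. The study elsewhere numbers the Control samples in another order, under which the correlations were 0.139, -0.138 and 0.125, and no block was fitted for that order. The median log2 fold change over the members was 0.0052, and it was -0.034 with quantile normalization and -0.070 to 0.025 in the fits without 1 sample. The number of pathway genes outside the members with an unadjusted p-value under 0.05 was 3 to 10 across those fits (10 and 3 without Cripto KO replicates 2 and 3), and 2 when Control replicate 3 alone was set against Cripto KO, a fit in which the lone sample is assumed to vary like the Cripto KO samples. The fewest reads were those of Nqo1 among the members, with 5 to 24 in a sample, and Me1 had 8 to 37.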
